A study of Homo sapiens with 9 samples.

Results

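The genes described here encode proteins of the junctions that hold neighbouring epithelial cells together. The members are the probe sets whose gene symbol in the array's platform annotation is a claudin (CLDN), a numbered cadherin (CDH), a desmoglein (DSG), a desmocollin (DSC), a plakophilin (PKP), a TJP scaffold, a catenin or a connexin, or is DSP, JUP, OCLN, F11R or EPCAM. This gave 43 probe sets, 1 for each of 43 genes, of 53617 probe sets in the table, of which 16098 carried a single gene symbol. Of the 43 genes, 27 belong to tight junctions (24 claudins with OCLN, TJP1 and TJP3), 13 to desmosomes, 2 are cadherins (CDH23 and CDH26) and 1 is EPCAM. No probe set was named here for a connexin, a catenin, F11R or a classical cadherin such as CDH1, so those genes were not analysed here. Another 18 probe sets have symbols that share only the first letters, such as CDHR1 or DSCAM, and were not counted as members. Of these, 9 genes were tested and 0 passed in any comparison by limma (lowest adjusted p = 0.0905).

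The cells were A549, an established human line from a lung adenocarcinoma, kept for 5 days in DMEM with 10% serum. The 3 conditions, with an additive known here only by the code FP001, were low-attachment plates with FP001 at 0.015% (w/v), low-attachment plates in normal medium with water added in its place, and ordinary attachment plates in normal medium with water. Each condition had 3 arrays, and whether replicates were separate cultures is not given, so a p-value here reflects the spread among arrays, which may be technical. Attachment replicate 1 was left out, which leaves 3 arrays with FP001, 3 low-attachment arrays in normal medium and 2 attachment arrays. Its rank correlation with every other array was at most -0.00191, whereas the other 8 correlated at 0.961 to 0.985 with one another. Whether its values stand beside the right probe sets is not known, so none of them is read as a gene's level.

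On the 8 arrays kept, the median intensity lay between 23.3 and 24.1. Of 9 marker genes listed for A549, 5 were named, all at the array median or above on at least 2 arrays, and their summed intensity was 5410 to 5986 with FP001, 4679 to 5036 on low-attachment plates and 4467 to 4647 on attachment plates. One probe set of KRT18 makes up most of these sums, and EPCAM is both a marker and a member. Against attachment plates, the keratin KRT19 rose 2.93-fold with FP001 and 2.04-fold in normal medium (adjusted p = 0.00134 and 0.0156 by limma). The second call was lost without attachment replicate 3. Between the media on low-attachment plates, KRT19 was 1.43-fold higher with FP001 and not called (adjusted p = 0.357 by limma). KRT7 against attachment plates was at -0.31 with FP001 on the log2 scale (not called). It fell by 0.54 in normal medium (adjusted p = 0.0416 by limma, kept in 3 of 8 leave-one-out fits). Of 6 fibroblast markers 2 were named, LUM and DCN. Their summed intensity was 82.7 to 440.1 with FP001, 27.9 to 250.4 in normal medium, and 31.6 and 96.7 on attachment plates. DCN lay below the median on every array and read 3.32 to 3.91. LUM lay at or above the median on all 8 arrays and makes up most of each sum, with 437 on FP001 replicate 1. Against attachment plates the log2 fold change of LUM was 1.57 ± 0.94 with FP001 and 0.29 ± 0.94 in normal medium, called in neither. Of 6 leukocyte markers 2 were named, CD14 and CD68 (summed 552 to 778, 496 to 656, and 406 and 484 in the same order). CD68 was called with FP001 against attachment plates (log2 fold change 0.74, adjusted p = 0.0145 by limma), but not when either attachment array was left out. Of 5 endothelial markers 3 were named (55.8 to 71.5, 51.2 to 55.9, and 46.1 and 52.3). KDR reached the array median on 0 of the 8 arrays, PECAM1 on 1 and VWF on 2, so the endothelial sums rest on dim readings. The A549, leukocyte and endothelial sums were all higher with FP001 than on attachment plates, and the A549 and leukocyte sums also in normal medium. The fibroblast sums overlapped among the 3 groups and were highest on replicate 1 of each low-attachment group. The part of these sums in the junction results was not tested. In bulk RNA such as this, fewer cells of a type and less RNA per cell cannot be told apart.

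Tight junctions close the gap between epithelial cells near their upper edge. Claudins form their strands, some sealing the gap and others, such as CLDN2, opening it to small ions and water, and the TJP scaffolds (ZO proteins) tie the strands to actin. Desmosomes are the spot-like anchors at which the desmosomal cadherins, the desmogleins and desmocollins, meet. Inside the cell, plakoglobin (JUP), the plakophilins and desmoplakin (DSP) link those cadherins to keratin filaments. EPCAM is an epithelial surface protein known to bind and steady claudins.

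The promoters of 5 members are shown because these had the largest changes described below among members with an entry, a choice made after the values were seen. They are 300 bases long, from 250 before to 50 after a gene start in RefSeq, build GRCh38.p14, written 5′ to 3′ on the gene's own strand. CLDN1 and DSP have 1 entry each, and CLDN2, TJP3 and DSC2 have 2, of which 1 is shown: for TJP3 and DSC2 the one that holds the E-box letters below, and for CLDN2 the first. The entries of TJP3 and DSC2 not shown do not hold these letters. Capitals mark the E-box letters CAGGTG or CACCTG, the form that repressors of epithelial genes such as SNAI1 and ZEB1 are known to bind.
CLDN1 (chr3:190322397-190322696, minus strand): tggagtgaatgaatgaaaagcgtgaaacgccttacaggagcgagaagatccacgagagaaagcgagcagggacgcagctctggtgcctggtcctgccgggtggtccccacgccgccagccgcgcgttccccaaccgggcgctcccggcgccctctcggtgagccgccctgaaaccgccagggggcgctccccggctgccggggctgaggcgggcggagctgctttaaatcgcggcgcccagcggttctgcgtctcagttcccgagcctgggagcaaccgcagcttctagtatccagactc
CLDN2 (chrX:106899914-106900213, plus strand): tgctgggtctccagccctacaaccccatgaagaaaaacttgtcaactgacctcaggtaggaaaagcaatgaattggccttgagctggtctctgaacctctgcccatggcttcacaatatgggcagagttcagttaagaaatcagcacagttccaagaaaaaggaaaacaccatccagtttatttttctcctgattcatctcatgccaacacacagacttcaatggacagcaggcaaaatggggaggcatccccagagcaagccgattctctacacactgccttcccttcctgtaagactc
TJP3 (chr19:3721487-3721786, plus strand): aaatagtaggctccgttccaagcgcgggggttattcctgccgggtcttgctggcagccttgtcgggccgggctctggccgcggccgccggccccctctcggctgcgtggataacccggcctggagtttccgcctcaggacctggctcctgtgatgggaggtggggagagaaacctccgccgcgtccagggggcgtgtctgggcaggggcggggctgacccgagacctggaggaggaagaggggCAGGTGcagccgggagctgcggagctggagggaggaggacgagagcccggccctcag
DSC2 (chr18:31102372-31102671, minus strand): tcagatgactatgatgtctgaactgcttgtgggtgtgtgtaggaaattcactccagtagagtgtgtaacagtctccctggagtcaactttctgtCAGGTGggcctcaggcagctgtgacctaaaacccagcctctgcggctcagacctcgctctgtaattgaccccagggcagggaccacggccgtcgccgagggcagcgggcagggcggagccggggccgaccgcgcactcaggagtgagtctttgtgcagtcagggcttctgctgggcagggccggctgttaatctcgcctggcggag
DSP (chr6:7541421-7541720, plus strand): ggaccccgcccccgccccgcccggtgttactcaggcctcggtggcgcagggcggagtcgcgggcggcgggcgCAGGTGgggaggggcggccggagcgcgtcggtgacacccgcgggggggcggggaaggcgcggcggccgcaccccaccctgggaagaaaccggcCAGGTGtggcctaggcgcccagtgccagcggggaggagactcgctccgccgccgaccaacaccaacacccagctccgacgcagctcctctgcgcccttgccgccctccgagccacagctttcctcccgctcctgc
These letters stood once in the TJP3 and DSC2 windows shown, at 2 places in the DSP window, and at none in those of CLDN1 and CLDN2. Over all 35116 promoters of the table, 7231 (20.6%) hold them on either strand, and over the 53 promoters of the 34 members with an entry, 18 do. A member with several entries counts more than once here, and by gene 16 of the 34 hold them. The share by gene over all genes was not counted, so that count cannot be set against the 20.6% of promoters. An AP-1 motif (TGACTCA or TGAGTCA) was in 1738 of all promoters (4.95%) and in 2 of the members' 53, those of CLDN4 and CLDN15. A motif of the grainyhead factors (AACNGGTT, on the gene's own strand only) was in 0.900% of all promoters and in 0 of the members'. The motifs did not overlap in the windows shown, a match is a description of the letters only, and the start that A549 cells use is not known from these data.

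A member was tested where it reached the array's median intensity on at least 2 of the 8 arrays, and 29 of the 43 members did. Of these, 28 were at or above the median on all 8 arrays and CLDN4 on 7, so none was let in by 1 condition alone. The other 14 were below the median on every array, at 3.34 to 22.6: DSC1, DSG1, DSG3, DSG4, PKP1, CLDN6, CLDN8, CLDN10, CLDN16, CLDN17, CLDN20, CLDN22, CLDN24 and CLDN34. These genes were not tested.

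Tight junction transcripts differed between the plates, with CLDN1 lower and CLDN2, CLDN9, CLDN4 and TJP3 higher on low-attachment plates in either medium. Of 18 tight junction members tested, 5 rose and 2 fell with FP001 against attachment plates, with a median log2 fold change of 0.21. In normal medium, 5 rose and 1 fell on low-attachment plates against attachment plates, with a median of 0.17. Over all 29 members, 8 rose and 4 fell with FP001 and 6 rose and 1 fell without it, that is 41.4% and 24.1% of them. Over all 11126 genes tested, 19.4% passed with FP001 (8.01% higher, 11.4% lower) and 10.1% without it (4.31% higher, 5.84% lower), with medians of 0.02 and 0.01. At an unadjusted p under 0.05 the shares of all genes were 35.1% and 26.2%. Both comparisons use the same 2 attachment arrays. Against so few arrays, groups without overlap were also seen in members that were far from passing. In normal medium these included CLDN11, CLDN25 and TJP1 (adjusted p = 0.35, 0.524 and 0.531 by limma). The share of all genes without overlap was not counted, so a lack of overlap below is a description only. The number called among members fell to 7 with FP001 without FP001 replicate 2, without low-attachment replicate 3 or without either attachment array. It fell to 4 in normal medium without attachment replicate 3. With attachment replicate 1 put back, 0 members passed in either comparison by limma, with 2 and 1 at an unadjusted p under 0.05.

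**Figure D1:**
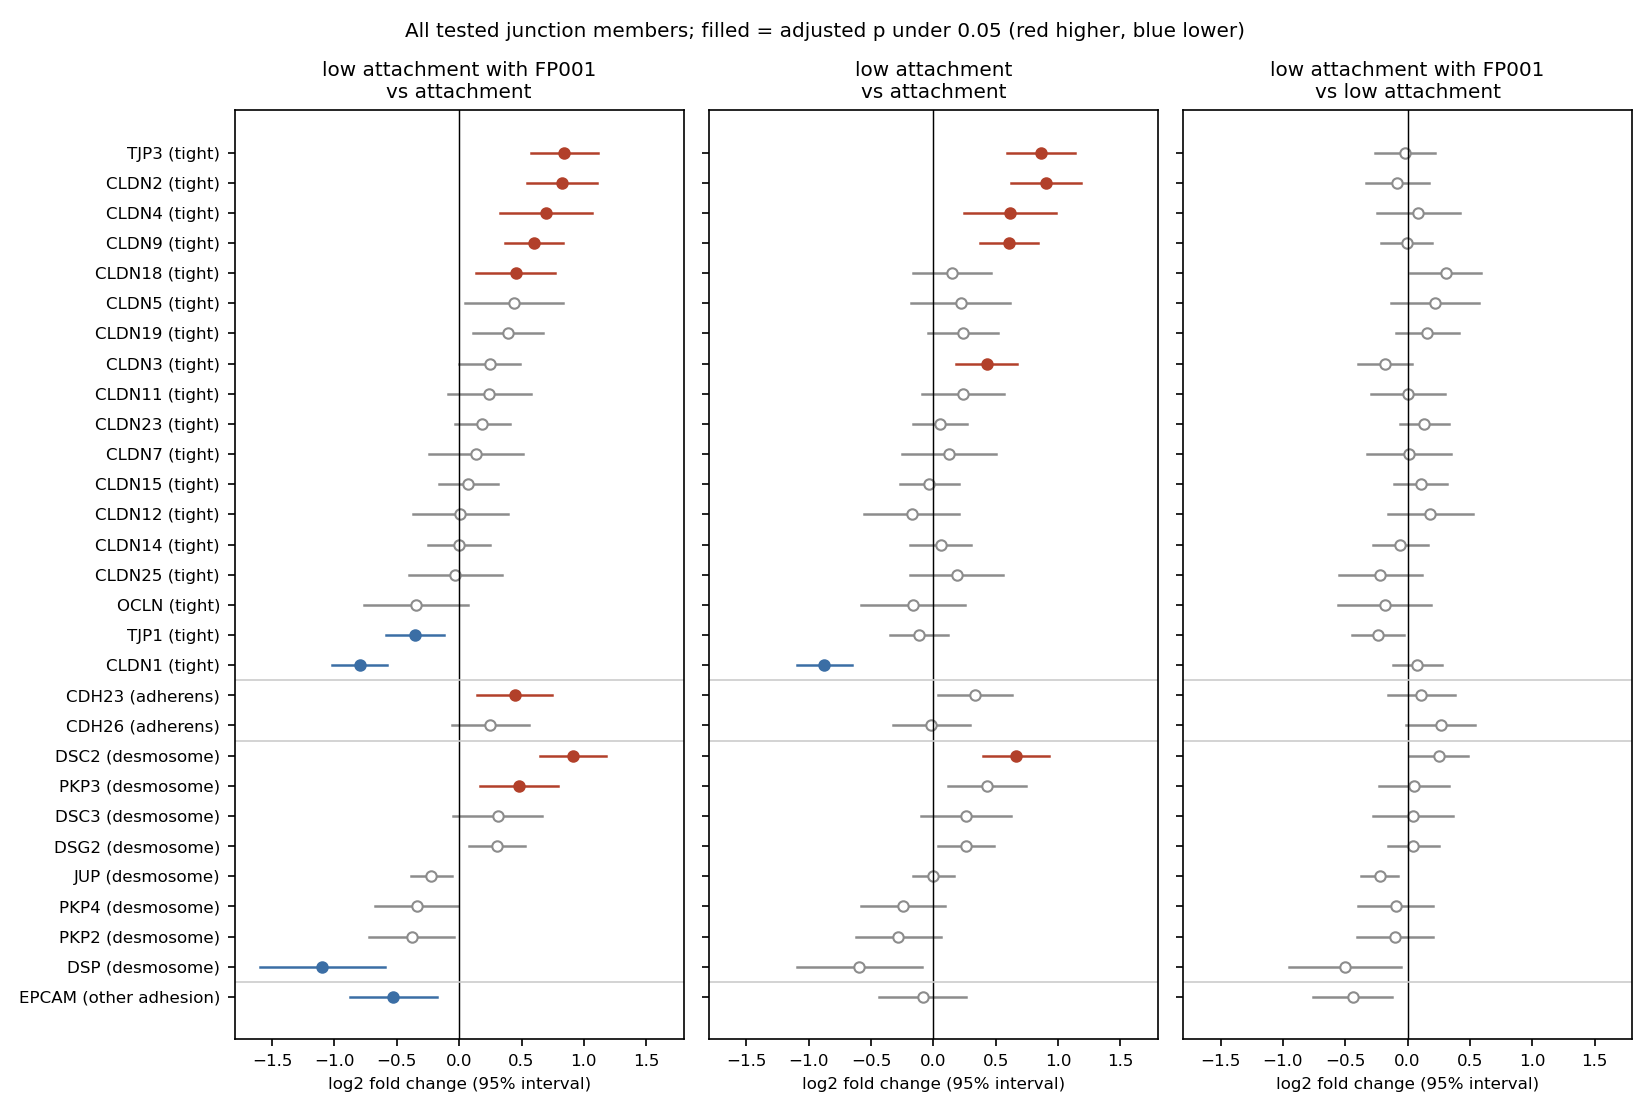
Fold changes of all 29 tested members (log2 scale on the x axis, points with 95% intervals from limma), in rows by junction type and in 1 panel per comparison. Filled points passed at an adjusted p under 0.05, in red where higher (8 and 6 members against attachment plates) and in blue where lower (4 and 1), and 0 points are filled for FP001 against normal medium.

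CLDN1, a claudin that seals the gap between cells, was lower on low-attachment plates in either medium. It read 417, 367 and 439 with FP001 and 359, 398 and 401 in normal medium, against 738 and 678 on attachment plates. All 6 low-attachment arrays lay below both attachment arrays. The log2 fold change against attachment was -0.80 ± 0.10 (SE) with FP001, a fall of 1.74-fold (adjusted p = 0.000762). In normal medium it was -0.87 ± 0.10, a fall of 1.83-fold (adjusted p = 0.000917). Between FP001 and normal medium CLDN1 did not pass (log2 fold change 0.08, 95% interval -0.12 to 0.27).

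CLDN2, the claudin that forms ion and water channels, moved the other way. It read 149, 129.9 and 114 with FP001 and 151, 136 and 127 in normal medium, against 77.2 and 70.2 on attachment plates. The groups on the 2 kinds of plate did not overlap. Against attachment plates, its log2 fold change was 0.82 ± 0.13 with FP001 (1.77-fold up, adjusted p = 0.00202) and 0.90 ± 0.13 in normal medium (1.87-fold up, adjusted p = 0.00227). In both low-attachment groups replicate 1 was the highest array for CLDN2, and the call held without it.

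TJP3 (ZO-3), a scaffold beneath the strands, rose as well. It read 247, 209 and 226 with FP001 and 257, 220.5 and 215 in normal medium, against 139.9 and 114.3 on attachment plates. Every low-attachment array was above both attachment arrays. The log2 fold change was 0.84 ± 0.12 with FP001 (1.79-fold up, adjusted p = 0.0015) and 0.86 ± 0.12 in normal medium (1.82-fold up, adjusted p = 0.00244). TJP1 (ZO-1), the related scaffold, had the opposite sign. It read 591, 733 and 724 with FP001 and 743, 856 and 809 in normal medium, against 873 and 863 on attachment plates. TJP1 fell with FP001, at a log2 fold change of -0.35 ± 0.11 (adjusted p = 0.0408), and was not called in normal medium (-0.11 ± 0.11, adjusted p = 0.531). That fall is weak: the call was kept in 3 of 8 leave-one-out fits and lost with quantile normalization (adjusted p = 0.061), without FP001 replicate 1 or 2, without low-attachment replicate 3 and without either attachment array (adjusted p = 0.05 to 0.173).

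CLDN9, best known from the inner ear, and CLDN4, a sealing claudin of many epithelia, also rose in both comparisons. CLDN9 read 52.7, 51.4 and 50.7 with FP001 and 56.0, 51.6 and 48.1 in normal medium, against 34.4 and 33.6 on attachment plates, with no overlap. Its log2 fold changes were 0.60 ± 0.10 with FP001 (adjusted p = 0.00386) and 0.61 ± 0.10 in normal medium (adjusted p = 0.00603). CLDN4 read 34.8, 39.3 and 42.5 with FP001 and 40.1, 32.0 and 37.9 in normal medium, against 28.2 and 20.2 on attachment plates. Its groups did not overlap either, but the 2 attachment arrays lay on either side of the array median. The log2 fold change of CLDN4 was 0.70 ± 0.17 with FP001 (adjusted p = 0.0169) and 0.61 ± 0.17 in normal medium (adjusted p = 0.0429). Without attachment replicate 3 these became 0.46 and 0.37 (adjusted p = 0.129 and 0.275). The normal-medium call was also lost without FP001 replicate 2 or 3 and without low-attachment replicate 1 or 3 (adjusted p = 0.0553 to 0.114).

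CLDN3, another sealing claudin, passed in normal medium and not with FP001. It read 275, 262 and 274 with FP001 and 301, 275 and 349 in normal medium, against 243 and 215 on attachment plates. Its log2 fold change was 0.43 ± 0.11 in normal medium (adjusted p = 0.0335) and 0.25 ± 0.11 with FP001 (adjusted p = 0.14). The difference between the media was -0.18 (95% interval -0.40 to 0.03) and was not called. CLDN18, a claudin of lung and stomach epithelium, passed with FP001 and not in normal medium, at 48.8, 50.7 and 39.3 with FP001 and 34.2, 38.4 and 39.2 in normal medium, against 30.8 and 36.7 on attachment plates. Its log2 fold change was 0.45 ± 0.14 with FP001 (adjusted p = 0.0483) and 0.15 ± 0.14 in normal medium (adjusted p = 0.55). Both calls are fragile, each kept in 2 of 8 leave-one-out fits. CLDN3 was called only without FP001 replicate 1 or low-attachment replicate 2, and CLDN18 only without FP001 replicate 3 or low-attachment replicate 1.

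Occludin (OCLN), a strand protein beside the claudins, did not pass. It read 264, 177 and 189.6 with FP001 and 289, 215 and 209 in normal medium, against 295 and 235 on attachment plates, so the groups overlapped. Its log2 fold change was -0.35 ± 0.19 with FP001 (adjusted p = 0.215) and -0.16 ± 0.19 in normal medium (adjusted p = 0.629). The 9 other claudins tested (CLDN5, CLDN7, CLDN11, CLDN12, CLDN14, CLDN15, CLDN19, CLDN23 and CLDN25) passed in no comparison. CLDN5 and CLDN19 had the largest values of these with FP001, at 0.44 and 0.39 (adjusted p = 0.105 and 0.054 by limma). The lowest was CLDN25 at -0.03. CLDN19 passed with FP001 in 1 of 8 leave-one-out fits.

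**Figure D2:**
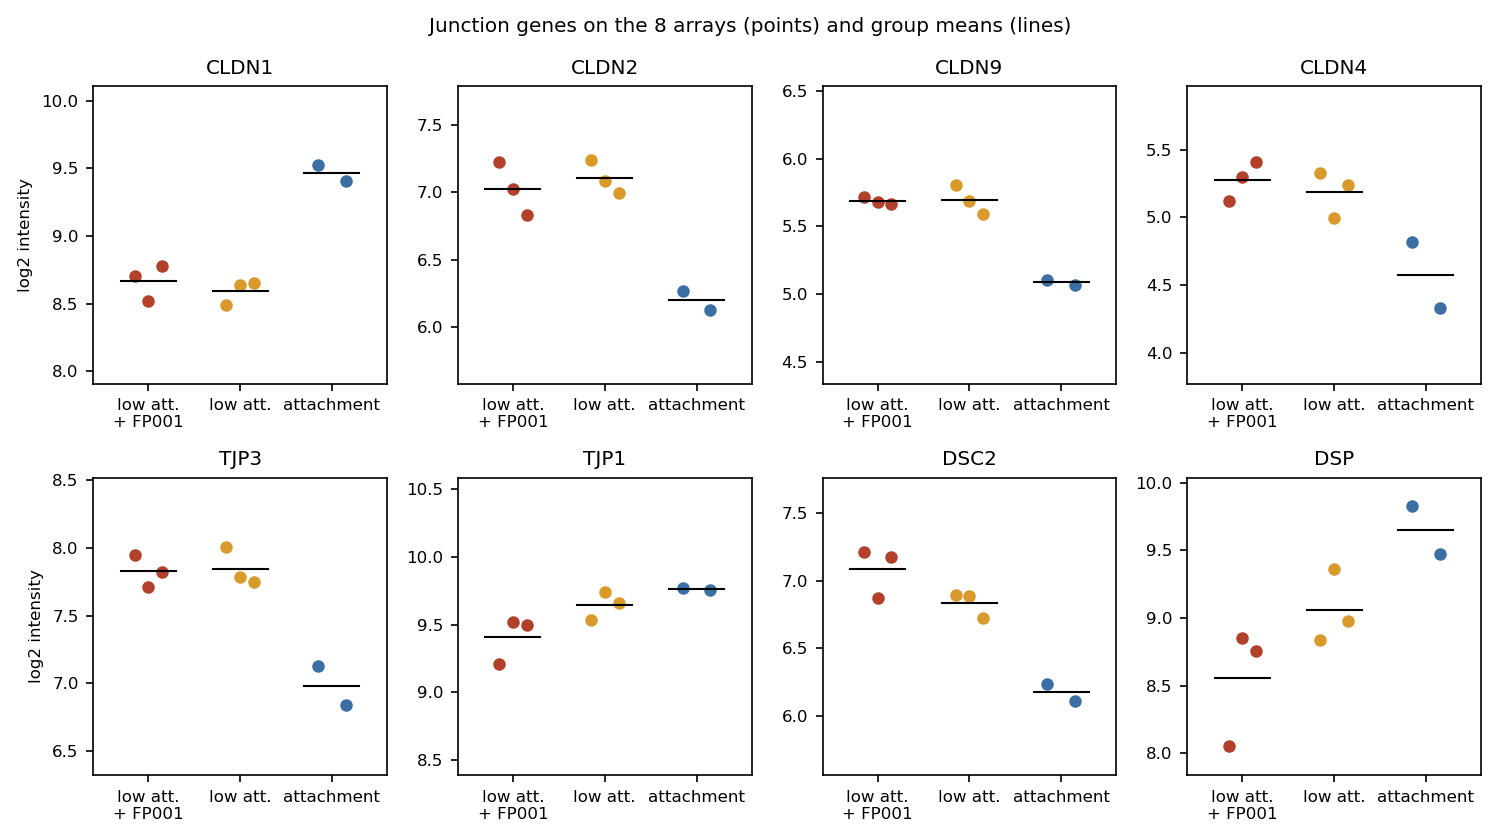
Log2 intensity of 8 members on each array (points) with the group mean (line), for low attachment with FP001, low attachment in normal medium and attachment plates, left to right, each panel spanning the same height. CLDN1 lies lower on all 6 low-attachment arrays (359 to 439 as intensity) than on the attachment arrays (738 and 678), and CLDN2, CLDN9, TJP3 and DSC2 lie higher.

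Among desmosome genes, a cadherin rose and the keratin linker fell. Of 8 tested members, 2 rose and 1 fell with FP001 against attachment (median log2 fold change 0.04), and 1 rose in normal medium (median 0.13). That is 37.5% and 12.5% of them, against 19.4% and 10.1% of all genes, so the share in normal medium is near that of all genes. DSC2 (desmocollin-2), a desmosomal cadherin, read 148, 117 and 145 with FP001 and 119, 118 and 106 in normal medium, against 75.3 and 69.3 on attachment plates. All low-attachment arrays were above both attachment arrays. Its log2 fold change was 0.91 ± 0.12 with FP001 (1.88-fold up, adjusted p = 0.000944) and 0.66 ± 0.12 in normal medium (1.58-fold up, adjusted p = 0.00733). Without attachment replicate 3 the normal-medium value was 0.60 (adjusted p = 0.0653).

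DSG2 (desmoglein-2), its partner cadherin, read 1041, 891 and 948 with FP001 and 1001, 895 and 890.0 in normal medium, against 844 and 712 on attachment plates. Its groups did not overlap, and it missed the threshold, with log2 fold changes of 0.31 ± 0.10 (adjusted p = 0.0581) and 0.26 ± 0.10 (adjusted p = 0.137). It passed with FP001 under quantile normalization (adjusted p = 0.0393) and without low-attachment replicate 1 (0.0448). DSC3, another desmocollin, had values of 0.31 and 0.26 and was not called.

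DSP (desmoplakin), which ties the desmosome to keratin, had the largest fall of the tested members with FP001. It read 265, 462 and 432 with FP001 and 457, 657 and 503 in normal medium, against 907 and 712 on attachment plates. All arrays with FP001 and all in normal medium were below both attachment arrays, while the 2 low-attachment groups overlapped. With FP001 the log2 fold change was -1.10 ± 0.23, a fall of 2.14-fold (adjusted p = 0.00877), and without attachment replicate 2 the value was -0.92 (adjusted p = 0.096). In normal medium the log2 fold change was -0.59 ± 0.23 and was not called (adjusted p = 0.126), though it passed without FP001 replicate 1, the lowest array (adjusted p = 0.0321).

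Of the 4 plaque proteins between cadherin and DSP that were tested, PKP3 passed, with FP001. JUP (plakoglobin) read 1382, 1343 and 1348 with FP001 and 1685, 1533 and 1541 in normal medium, against 1648 and 1523 on attachment plates. The arrays with FP001 were below all the others, but the fall was small and missed the threshold (log2 fold change -0.22 ± 0.07, adjusted p = 0.0584). Without low-attachment replicate 1 it passed (adjusted p = 0.0414). PKP3 (plakophilin-3) read 177, 157 and 143 with FP001 and 149, 167 and 143 in normal medium, against 132 and 97.5 on attachment plates. It rose with FP001, at a log2 fold change of 0.48 ± 0.14 (adjusted p = 0.0381), and was not called in normal medium (0.43 ± 0.14, adjusted p = 0.0827). The PKP3 call was kept in 4 of 8 leave-one-out fits, and lost without FP001 replicate 1 or 2, low-attachment replicate 3 or attachment replicate 3, the last giving 0.26 (adjusted p = 0.272). PKP2 (plakophilin-2) read 202, 178 and 193 with FP001 and 238, 197 and 183 in normal medium, against 297 and 208 on attachment plates, and did not pass (-0.38 ± 0.15, adjusted p = 0.106). It passed without attachment replicate 3 (-0.64, adjusted p = 0.0337). PKP4 had values of -0.34 and -0.24 and was not called.

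Both cadherins tested are unlike the classical ones. CDH23, a cadherin known from the hair-cell tip link, read 33.3, 40.9 and 33.1 with FP001 and 32.6, 35.3 and 31.1 in normal medium, against 24.6 and 27.8 on attachment plates. It passed with FP001, at a log2 fold change of 0.45 ± 0.14 (adjusted p = 0.0432), and not in normal medium (0.33 ± 0.14, adjusted p = 0.148). That call was kept in 1 of 8 leave-one-out fits, the one without FP001 replicate 3, and adjusted p-values in the others ran from 0.0513 to 0.241. CDH26 read 45.4, 36.8 and 36.7 with FP001 and 32.4, 32.1 and 34.0 in normal medium, against 29.8 and 36.9 on attachment plates, and did not pass (0.25 ± 0.14 and -0.02 ± 0.14).

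EPCAM read 206, 134 and 154 with FP001 and 234, 205 and 222 in normal medium, against 252 and 216 on attachment plates. With FP001 all arrays were below both attachment arrays, and without it the groups overlapped. With FP001 its log2 fold change was -0.53 ± 0.16, a fall of 1.44-fold (adjusted p = 0.042), and it was not called in normal medium (-0.09 ± 0.16, adjusted p = 0.774). The call was kept in 2 of 8 leave-one-out fits, those without FP001 replicate 1 or low-attachment replicate 1, with adjusted p-values of 0.0521 to 0.253 in the others. It was also lost with quantile normalization (-0.44, adjusted p = 0.0719).

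**Figure D3:**
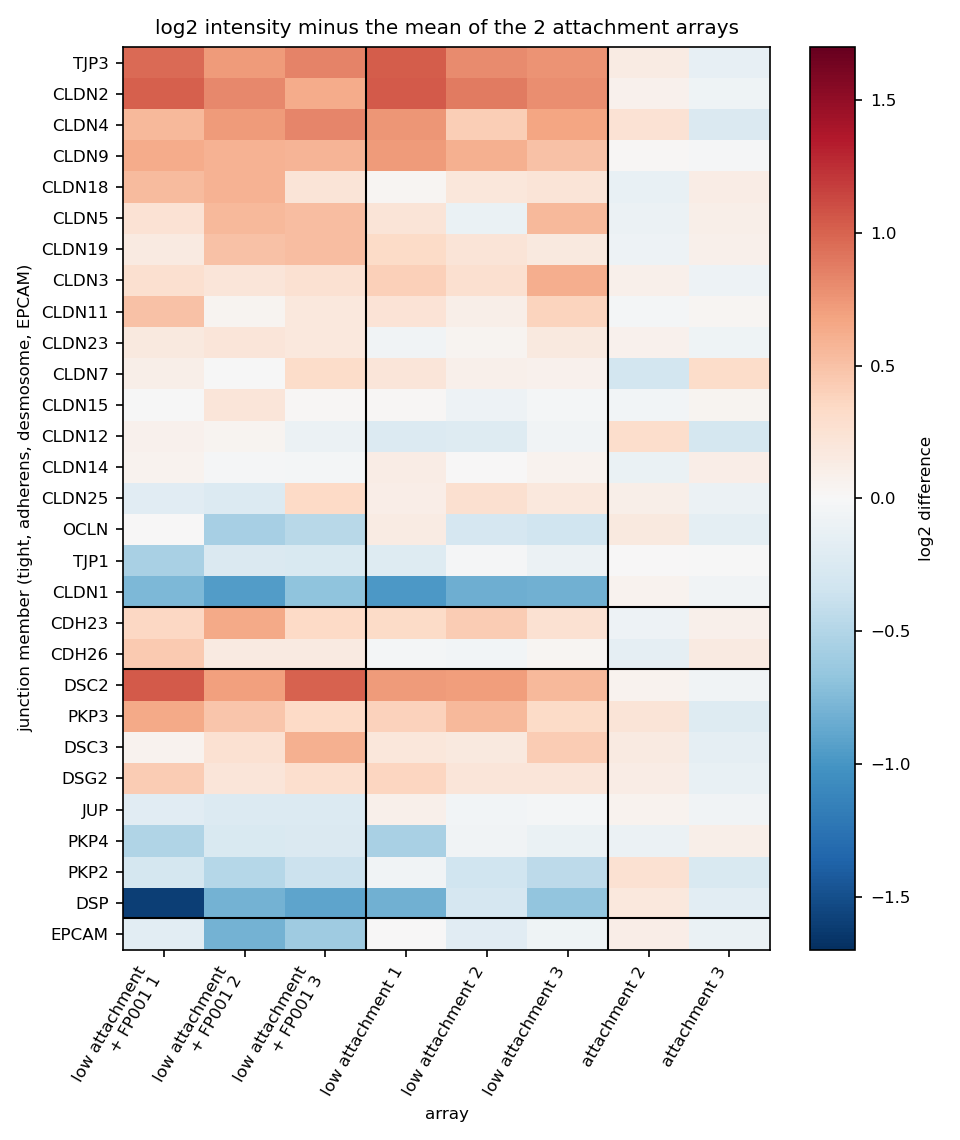
Log2 intensity of the 29 tested members on each of the 8 arrays minus the mean of the 2 attachment arrays, red above and blue below, with rows by junction type and columns by condition. CLDN2, TJP3, CLDN9 and DSC2 are red and CLDN1 and DSP are blue on all 6 low-attachment arrays, with DSP lowest on FP001 replicate 1 (265 as intensity).

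**Figure D4:**
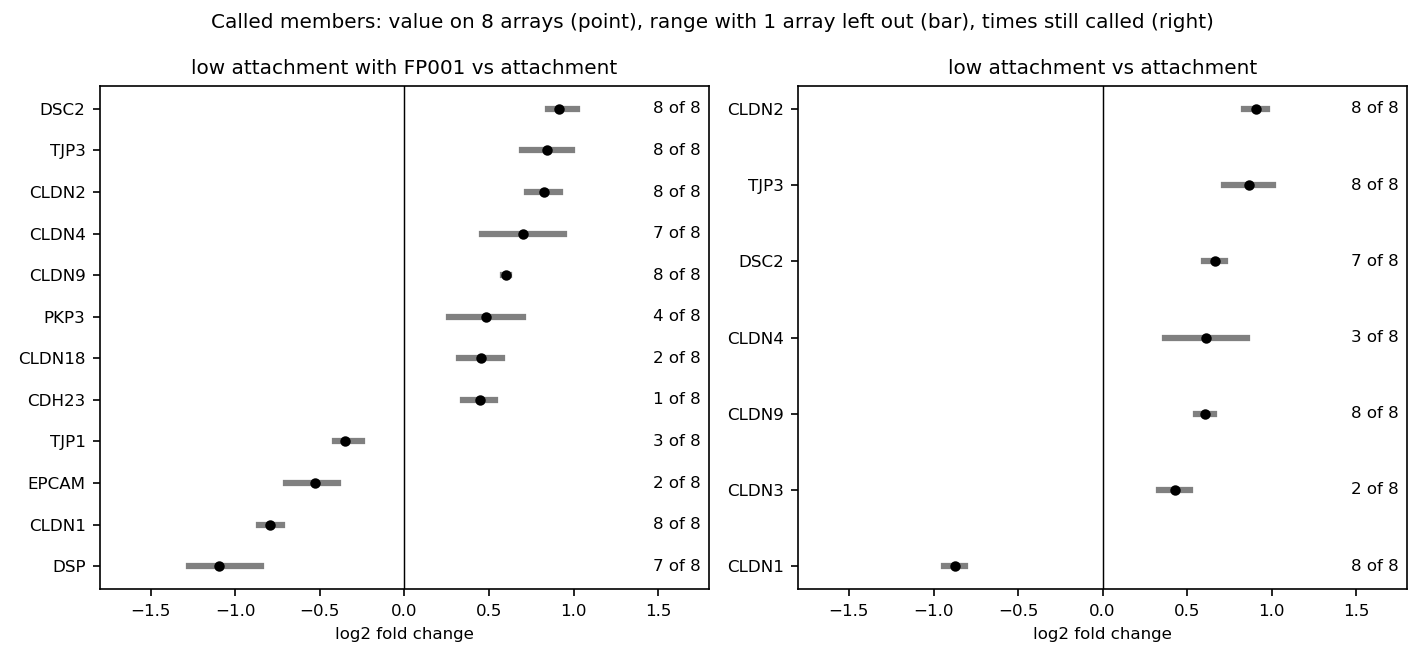
Log2 fold change of each called member on 8 arrays (points) and its range when 1 array was left out (bars), with the number of the 8 such fits that kept the call at the right. CLDN1, CLDN2, TJP3 and CLDN9 kept it in 8 of 8 fits in both comparisons, DSC2 in 8 and 7, and CDH23 in 1.

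Between the media, both on low-attachment plates, the labels name FP001 in place of water as the difference. No junction gene passed by limma (0 of 29, against 0.108% of all genes, 0.0360% higher and 0.0719% lower), with 6 of the 29 at an unadjusted p under 0.05, against 11.6% of all genes. Same-numbered arrays of these groups varied together, most clearly for number 1. With the replicate number as a block, 1 member passed, against 1.30% of all genes in that fit. That was DSP, at a log2 fold change of -0.50 (adjusted p = 0.0262, against 0.382 without the block). Without a block its 95% interval was -0.95 to -0.06. Besides DSP, the 6 were JUP (-0.22, 95% interval -0.37 to -0.08), EPCAM (-0.44, -0.76 to -0.13), TJP1 (-0.24, -0.45 to -0.03), CLDN18 (0.30, 0.02 to 0.59) and DSC2 (0.25, 0.02 to 0.49). JUP, TJP1 and CLDN18 did not overlap between the media, but neither did CDH26 and CLDN23 (adjusted p = 0.449 and 0.602 by limma). The share of all genes without overlap was not counted, so this is a description only. A value that misses the threshold does not show that the media gave the same level. For CLDN2 (-0.08, -0.33 to 0.17), TJP3 (-0.02, -0.26 to 0.22) and CLDN9 (-0.01, -0.21 to 0.20) the intervals include 0.

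A moderated F-test over the 3 groups together passed 7 of the 29 members tested, against 14.0% of all genes. They were CLDN1 (adjusted p = 0.000969), TJP3 (0.00258), DSC2 (0.00263), CLDN2 (0.00272), CLDN9 (0.00597), DSP (0.0239) and CLDN4 (0.0358). The count was 4 without attachment replicate 3.

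Partner genes of the junctions were described from lists that hold no member. Their shares called with FP001 were 14.3% for tight junction partners and polarity genes, 44.4% for adherens junction partners, 16.7% for desmosome partners and 7.14% for regulators, against 19.4% of all genes. In normal medium they were 0%, 22.2%, 0% and 7.14%, against 10.1%. Of 21 tight junction partners and polarity genes tested, 2 rose and 1 fell with FP001 against attachment, and 0 passed in normal medium by limma, with 6 at an unadjusted p under 0.05. CRB3, an apical polarity protein, read 142, 124 and 125 with FP001 and 124, 103.5 and 101 in normal medium, against 87.1 and 85.2 on attachment plates, and rose with FP001 by 0.60 ± 0.11 on the log2 scale (adjusted p = 0.0058). LLGL2, a polarity protein of the lower cell side, rose by 0.42 ± 0.13 (adjusted p = 0.0484) and MPDZ, a scaffold that binds claudins, fell by 0.58 (adjusted p = 0.0105). LLGL2 kept its call in 1 leave-one-out fit, without low-attachment replicate 1, and MPDZ lost it without attachment replicate 2 (adjusted p = 0.0907).

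Of 9 adherens junction partners tested, 2 rose and 2 fell with FP001, and 1 rose and 1 fell in normal medium. ADAM15, a membrane protease, rose in both, by 0.78 ± 0.16 and 0.68 ± 0.16 on the log2 scale (adjusted p = 0.00842 and 0.0236). VCL (vinculin), which anchors actin at adhesion sites, read 802, 831 and 773 with FP001 and 734, 787 and 631 in normal medium, against 1059 and 1173 on attachment plates (log2 fold changes -0.48 ± 0.10 and -0.64 ± 0.10, adjusted p = 0.00976 and 0.00378). NECTIN1 and NECTIN3, adhesion proteins of the nectin family, moved in opposite directions with FP001 (0.42 ± 0.12 and -0.41 ± 0.10, adjusted p = 0.0361 and 0.0169). Without attachment replicate 2, ADAM15 missed the threshold in both comparisons (adjusted p = 0.0681 and 0.132), as it did in normal medium without replicate 3 (0.109). VCL missed it with FP001 without attachment replicate 3 (0.0773), and the nectins did without either attachment array and, for both, without FP001 replicate 2. NECTIN1 also did without FP001 replicate 1 or low-attachment replicate 2 or 3.

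Of 6 desmosome partners tested, 1 rose with FP001 and 0 passed in normal medium by limma (0 at an unadjusted p under 0.05). That was the keratin KRT18, at 0.30 ± 0.06 on the log2 scale (adjusted p = 0.00893), by the brighter of its 2 probe sets, and it was lost without attachment replicate 2 (adjusted p = 0.087). The other KRT18 probe set did not show it, at 300.1, 268 and 283 with FP001 and 290.3, 272 and 272 in normal medium, against 265 and 288 on attachment plates. Of 3 gap junction relatives tested, the pannexins, 0 passed in either comparison, with 1 at an unadjusted p under 0.05 in each. Of 3 EPCAM partners tested, the tetraspanin CD9 rose with FP001 (0.56 ± 0.13, adjusted p = 0.0138), not without attachment replicate 3 (0.102), and 0 passed in normal medium, with 1 at an unadjusted p under 0.05.

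Of 14 regulators of junction gene transcription tested, 1 rose with FP001 and the same number in normal medium, in each case the epithelial ETS factor EHF. It read 607, 440 and 463 with FP001 and 749.6, 528 and 453 in normal medium, against 329 and 218 on attachment plates, with no overlap. Its log2 fold changes were 0.90 ± 0.23 (adjusted p = 0.021) and 1.07 ± 0.23 (adjusted p = 0.0148). Without attachment replicate 3 they were 0.60 and 0.78 (adjusted p = 0.165 and 0.13), and with FP001 the call was also lost without FP001 replicate 1 (0.0597). The repressors ZEB1 and SNAI2 did not pass (ZEB1 -0.04 and 0.01, SNAI2 -0.16 and -0.29 with and without FP001), nor did KLF4 (0.23 and 0.19). SNAI1, named here after its values were seen, had -0.64 ± 0.25 with FP001 (adjusted p = 0.0995) and -0.46 ± 0.25 in normal medium (adjusted p = 0.277). In none of these 6 lists did a gene pass between FP001 and normal medium by limma. At an unadjusted p under 0.05 were 3 of 21 tight junction partners and polarity genes, 1 of 9 adherens partners and 1 of 6 desmosome partners. The other lists had 0 of 3 gap junction relatives, 0 of 3 EPCAM partners and 0 of 14 regulators. The share of all genes was 11.6%.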

How the data were processed

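Total RNA of 9 A549 samples was read on Affymetrix arrays from biotinylated cRNA made from 100 ng each, per the labels' protocols. The authors deposited 1 intensity per probe set and array on a linear scale, produced by MAS5 according to the submitters' processing notes, with settings not given in the sources read. Gene names came from the platform annotation in GEO: 16098 probe sets had 1 symbol, 0 several and 37519 were not named here, and all 16098 matched RefSeq (GRCh38.p14) by gene identifier.

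Values were log2 of the intensity, with no further scaling. Named probe sets at or above the array median on at least 2 of 8 arrays were kept, the brightest per gene (11126 genes). A single linear model of the 3 groups was fitted by limma 3.58.1 (R 4.3.3, eBayes with a trend, 5 residual and 5.64 prior degrees of freedom), tested on simulated data. Tests were two-sided, Benjamini-Hochberg over all genes, called at an adjusted p under 0.05. SE and intervals are limma's, and precision is limited by the number of arrays. Leave-one-out fits drop each of the 8 arrays in turn on the same genes, and a lone attachment array is then assumed to vary like the other groups.

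Same-numbered arrays of the low-attachment groups deviated together (correlations 0.474, 0.301 and 0.221 for numbers 1, 2 and 3). Arrays of different numbers ran from -0.346 to 0.131, with numbers 2 and 3 positive across the groups (0.0887 and 0.131). Deviations are from the mean of each group, so these values depend on one another, and the pairing is clearest for number 1. For attachment arrays 2 and 3 the same-number values were -0.251 and 0.00673 with FP001, and -0.199 and 0.130 in normal medium. With 2 arrays the deviations mirror each other, and number 1 is left out, so pairing of the attachment arrays cannot be judged.

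The members, lists and tests were chosen with earlier results of these data known. Named were all called members, up to 4 of the brightest per junction type, up to 4 called genes per list, and ZEB1, SNAI2, GRHL2 and KLF4 where tested. GRHL2 was not tested. Other alternatives were quantile normalization, other filters, a pseudocount of 16, all probe sets, only the groups compared, no trend, a replicate block and all 9 arrays.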

Additional observations from a re-analysis of the deposited data

How the results depend on the processing

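With attachment replicate 1 put back, the counts of called members were 0, 0 and 0 with FP001 against attachment, in normal medium against attachment and in the F-test (the main counts are 12, 7 and 7). The fitted values of CLDN1, from a column whose match to the probe sets is not known, then turned to 0.79 with FP001 and 0.71 in normal medium, and with FP001 those of DSP to 0.13, TJP1 to 2.02, CDH23 to -0.59 and CLDN18 to -1.21, while the median log2 fold change of all genes moved to 0.70 in both comparisons. Testing every kept probe set, named or not, gave 7 calls with FP001, over more tests. The replicate block gave 1 call between FP001 and normal medium, and 13 in the F-test. Against attachment plates, where pairing cannot be judged, the block gave 16 calls with FP001 and 8 in normal medium. It called OCLN, JUP, PKP2, CLDN5 and CLDN19 with FP001 and DSP and PKP3 in normal medium, and lost CLDN18 with FP001 and CLDN4 in normal medium. With 1 array left out, the counts ran from 7 to 13 with FP001, from 4 to 8 in normal medium, and from 4 to 9 in the F-test, and stayed at 0 between the media. Over 8 settings other than leaving out an array or adding the ninth (the block and the fits of only the groups compared included), 664 of 696 member values kept their side of the threshold, 22 lost and 10 gained a call, and 0 calls turned round. Changes of sign in values called in neither fit were not counted. Quantile normalization moved the share of rises among all called genes to 55.6%, against 41.2%, with FP001 and to 53.7%, against 42.4%, in normal medium, and the members' split to 10 up and 2 down with FP001, while in normal medium it stayed at 6 and 1. Over all genes, the number called with FP001 was 4025 with every kept probe set, 675 and 1142 without attachment replicates 2 and 3, and 1299 and 1358 without FP001 replicates 1 and 2, against 2161. In normal medium it was 369 and 458 without attachment replicates 2 and 3, and 759, 761 and 747 without low-attachment replicates 1, 2 and 3, against 1129. Between the media it was 145 with the block and 0 or 1 without any FP001 array, without low-attachment replicate 2 or 3, with every probe set and without the trend, against 12. With all 9 arrays it was 0 in each comparison. The 14 dim members were not tested, and a median is no measured background.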
